A study of Homo sapiens with 12 samples.

Results

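The genes described here are 38 type I interferon-stimulated and interferon signalling genes, taken by symbol from the 55765 genes of a count table. All 38 symbols were present, 37 had at least 1 count in some library, and 28 passed the filter on low counts that left 11474 genes for testing. RNA was sequenced from OCI-AML2, a human acute myeloid leukaemia cell line, in clones grown from single cells, in which doxycycline is meant to switch on an introduced form of MEF2C, a transcription factor of blood and muscle cells. The groups were S222A induced, S222A uninduced, WT induced and WT uninduced, with 3 libraries each. S222A replaces a serine of MEF2C by alanine and WT is the wild-type protein. Induced cells had 600 ng doxycycline in 3 ml for 48 h, and uninduced cells had vehicle. All groups shared the parental line and the presence of a MEF2C construct. How many clones stood for each construct is not given in the sources used here, and no treated cells without a construct were analysed here, so clone, construct and an effect of doxycycline itself cannot be told apart from the MEF2C forms. No label says that the 3 libraries of a group came from separate cultures, so the tests measure the spread between these libraries, which may be technical.

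Type I interferons bind the receptor pair IFNAR1 and IFNAR2 on the cell surface. The kinases JAK1 and TYK2 then pass the signal to the complex ISGF3, of which STAT2 and IRF9 are subunits. ISGF3 binds the interferon-stimulated response element (ISRE), a sequence in the promoters of many antiviral genes, and the GAS element is another interferon-responsive sequence, as in IRF1. IRF7 carries the response further by switching on interferon genes, and USP18 holds it back at the receptor. In myeloid cells many of these genes have a low tonic level without added interferon.

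Promoter sequence, from RefSeq on GRCh38.p14, was found for 30 of the 38 genes. In the 250 bases before the start, ISRE matches (GAAA and, after 2 bases of any kind, GAAA again, on either strand) were present in 16 of those 30 promoters (53.3%), against 1061 of 35116 promoters in the table (3.02%). Of the 6 genes with a promoter entry that were called in some comparison, 2 held a match, OAS3 and IFIT3 (33.3%). IRF1, RSAD2, IFI16 and STAT2 held none. GAS matches (TTCNNNGAA, which reads the same on both strands in its fixed letters) were present in 8 (26.7%, against 6.57% of all promoters). The MEF2 consensus was matched in 0 of the 30, against 2.8% of all promoters. A match describes the letters only. Just the first promoter entry of each of the 38 genes was searched, so a match at another start or further away would be missed. The stretches below are those of the 12 genes with more than 1 ISRE match, with matches in capitals and overlapping matches run together, and of IRF1, whose capitals mark its GAS match. They are shown because these elements are the known binding sites of the pathway, and the values of their genes follow below.
IRF1, chr5:132490879-132490907 (- strand): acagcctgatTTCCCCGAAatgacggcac
OAS3, chr12:112938321-112938473 (+ strand): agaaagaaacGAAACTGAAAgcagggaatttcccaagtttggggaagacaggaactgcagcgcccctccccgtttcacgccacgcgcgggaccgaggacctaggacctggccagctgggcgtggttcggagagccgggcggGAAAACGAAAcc
IFIT3, chr10:89327831-89327894 (+ strand): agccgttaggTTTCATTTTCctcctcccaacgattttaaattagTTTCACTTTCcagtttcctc
IFIT5, chr10:89414513-89414567 (+ strand): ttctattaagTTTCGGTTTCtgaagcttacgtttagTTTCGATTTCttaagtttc
IFIT1, chr10:89392497-89392539 (+ strand): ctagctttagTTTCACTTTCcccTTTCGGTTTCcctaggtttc
IFITM3, chr11:320876-320922 (- strand): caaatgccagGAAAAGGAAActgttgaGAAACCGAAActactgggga
ISG15, chr1:1013374-1013409 (+ strand): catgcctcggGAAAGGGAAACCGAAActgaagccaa
HERC5, chr4:88456984-88457064 (+ strand): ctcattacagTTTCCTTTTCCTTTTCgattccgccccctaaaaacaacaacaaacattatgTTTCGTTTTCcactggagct
BST2, chr19:17405735-17405770 (- strand): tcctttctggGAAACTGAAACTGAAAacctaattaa
IFIH1, chr2:162318686-162318853 (- strand): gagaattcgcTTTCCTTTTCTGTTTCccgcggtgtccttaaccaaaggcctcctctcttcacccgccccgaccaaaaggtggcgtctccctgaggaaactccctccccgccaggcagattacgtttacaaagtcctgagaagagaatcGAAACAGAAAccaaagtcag
IFI6, chr1:27672266-27672358 (- strand): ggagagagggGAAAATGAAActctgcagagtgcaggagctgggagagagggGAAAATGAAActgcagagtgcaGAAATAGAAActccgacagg
IFI27, chr14:94110618-94110660 (+ strand): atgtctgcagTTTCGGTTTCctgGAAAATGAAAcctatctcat
IFI44L, chr1:78620274-78620394 (+ strand): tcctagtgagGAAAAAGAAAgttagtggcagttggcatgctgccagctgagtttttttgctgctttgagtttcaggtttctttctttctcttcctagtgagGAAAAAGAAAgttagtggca

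Library totals ranged from 875710 to 13134791 counts. Levels are given in counts per 1e6 counts (CPM) with TMM library factors, and a count of 0 allows up to 0.239 CPM in the deepest and up to 3.36 CPM in the shallowest library, for counting error only. The deepest library of each group lay apart, at 33.5 to 44.4 on principal component 1 (33.1% of the variance), with the other 8 at -51.3 to -2.2. On component 2 (22% of the variance) the S222A induced libraries lay apart, at 32.6 to 47.2, with the others at -29.9 to 9.4. S222A uninduced replicate 3 stood alone on component 3 at 62.5, the others at -31.2 to 13.3. MEF2C RNA was 920, 956 and 786 CPM in S222A induced, 605, 701 and 802 CPM in S222A uninduced, 674, 844 and 812 CPM in WT induced, and 747, 645 and 817 CPM in WT uninduced libraries. No rise was called on doxycycline in the S222A line (log2 fold change 0.34 ± 0.16 SE, edgeR adjusted p = 0.285) or the WT line (0.08 ± 0.16 SE, adjusted p = 1.00), so groups are called induced by their treatment. Of 10 markers of myeloid leukaemia cells, CD33, FLT3 and SPI1 stood at 27.5 CPM or more in every library, while CEBPA was at 0 in all 12. CD34 was at most 0.41 CPM, and ITGAM, KIT, CSF1R, MPO and LYZ were at most 23 CPM. FLT3, KIT and ITGAM were highest in all 3 S222A induced libraries, with FLT3 at 101 to 111 CPM against at most 84 elsewhere. MPO was lowest there, at 0.693 to 3.34 CPM against at least 4.48 elsewhere. The part of the myeloid markers in the results was not tested. Plasmacytoid dendritic cells, the main interferon producers in blood, have 8 listed markers, whose summed level was 241 to 268 CPM in S222A induced, 133 to 286 in S222A uninduced, 230 to 293 in WT induced and 246 to 296 CPM in WT uninduced libraries. CLEC4C, IL3RA and GZMB of that list were at 0 in every library. The 6 B and plasma cell markers summed to at most 12.1 CPM, and the erythroid and megakaryocytic and the epithelial and stromal markers to at most 3.46 CPM each.

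Doxycycline treatment of the S222A line raised 4 of the 28 genes tested and lowered none: the transcription factors IRF1 and IRF7, the antiviral enzyme gene RSAD2 and the DNA sensor gene IFI16. Among all genes tested, 4.45% were called in the same comparison, 2.80% higher and 1.66% lower. At an unadjusted p under 0.05, 12 of the 28 were higher and 1 lower, against 9.85% and 9.26% of all genes. RSAD2 and IFITM3, among the 12, passed the filter only through S222A induced libraries, and IFIT3 only through S222A libraries. The count of 12 is thus partly fixed by the filter. Called means an adjusted p under 0.05 in edgeR's quasi-likelihood test with Benjamini-Hochberg adjustment over all 11474 genes. The summed level of the 38 genes was 801.1, 806.5 and 871.7 CPM in S222A induced libraries, against 694.2, 640.2 and 669.1 CPM in S222A uninduced libraries. In the WT line it was 722.9, 686.1 and 633.7 CPM induced and 641.9, 650.3 and 671.6 CPM uninduced. The 3 S222A induced libraries were thus above the other 9, and the WT groups overlapped. In bulk RNA, fewer cells expressing a gene and less RNA per cell cannot be told apart. Of the 8 plasmacytoid dendritic cell markers, 2 were highest in all 3 S222A induced libraries. The factor SPIB stood at 34.6, 35.9 and 38.4 CPM in S222A induced libraries, 11.7, 12.3 and 2.19 in S222A uninduced, 8.95 to 14 in WT induced and 4.9 to 8.58 CPM in WT uninduced libraries. PTCRA, a receptor chain also listed for those cells, stood at 5.89 to 7.57 CPM in S222A induced and at no more than 3.29 CPM in the other libraries. The other markers of the list did not follow. IRF8, a myeloid and dendritic cell factor, stood at 123, 130 and 123 CPM in S222A induced libraries, 183, 198 and 28.5 in S222A uninduced, 132 to 232 in WT induced and 183 to 236 CPM in WT uninduced libraries. TCF4 overlapped, at 71.2 to 95.9 CPM in S222A induced and 59.2 to 98.6 CPM in S222A uninduced libraries, LILRA4 was at most 0.399 CPM, and the remaining 3 were at 0. The part of these markers in the results was not tested.

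**Figure D1:**
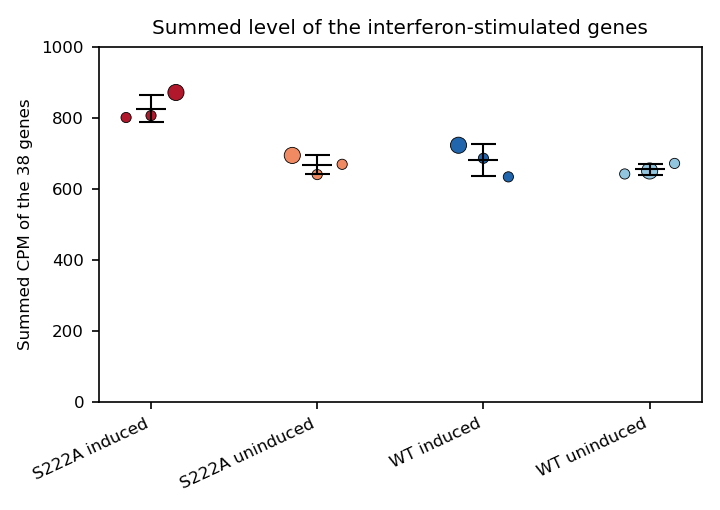
Summed level of the 38 interferon-stimulated genes (CPM with TMM factors, y axis from 0) in each library by group, with large points for the deepest library of a group and bars for mean ± SD (n = 3). The S222A induced libraries, at 801.1 to 871.7 CPM, lie above the other 9, at 633.7 to 722.9 CPM.

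Among the signalling and transcription factors, IRF1, an activator that is itself an early interferon target, stood at 30.8, 33.0 and 36.8 CPM in S222A induced libraries, against 15, 15.6 and 18.6 CPM in S222A uninduced libraries. The groups did not overlap, and every induced library was above every library of the other 3 groups, whose WT values were 12.3 to 16.3 CPM induced and 11.6 to 15.1 CPM uninduced. IRF1 rose 2.1-fold (95% interval 1.57 to 2.81; log2 1.07 ± 0.20 SE, edgeR adjusted p = 0.00826). IRF7, the factor that amplifies interferon production, stood at 11.8, 14.9 and 12 CPM in S222A induced libraries, against 3.24, 5.34 and 5.48 CPM in S222A uninduced libraries. IRF7 levels in the WT line were no higher than 5.31 CPM with or without doxycycline. IRF7 rose 2.97-fold (95% interval 1.86 to 4.75; log2 1.57 ± 0.31 SE, adjusted p = 0.0137). STAT2, a subunit of ISGF3, stood at 24.2, 25.9 and 29.5 CPM in S222A induced libraries, against 19.1, 13.1 and 18.6 CPM in S222A uninduced libraries. The groups did not overlap, but the difference was not called (log2 0.65 ± 0.25 SE, edgeR adjusted p = 0.168). IRF9, the DNA-binding subunit of ISGF3, had only 15 counts over all 12 libraries and was not tested. Another transcript on the same strand overlaps IRF9 exons in GENCODE 29, so its low count is uncertain.

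Of the antiviral effectors, RSAD2, which encodes viperin, stood at 7.27, 5.13 and 5.34 CPM in S222A induced libraries, against 0.841, 0.821 and 0 CPM in S222A uninduced libraries. RSAD2 passed the filter only through the induced S222A libraries, where it had 21, 23 and 67 counts, against 7, 2 and 0 counts uninduced. Its fold of 7.67 is therefore uncertain (95% interval 2.98 to 19.7; log2 2.94 ± 0.63 SE, adjusted p = 0.0207). In the WT line RSAD2 was at 1.02, 1.12 and 2.63 CPM induced and 0, 0.966 and 0.409 CPM uninduced, and was not called. IFI16, an interferon-inducible DNA sensor, stood at 50.2, 52.8 and 58.1 CPM in S222A induced libraries, against 33.9, 32.8 and 25.2 CPM in S222A uninduced libraries. These groups did not overlap, and IFI16 rose 1.72-fold (95% interval 1.30 to 2.28; log2 0.78 ± 0.19 SE, edgeR adjusted p = 0.0356).

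**Figure D2:**
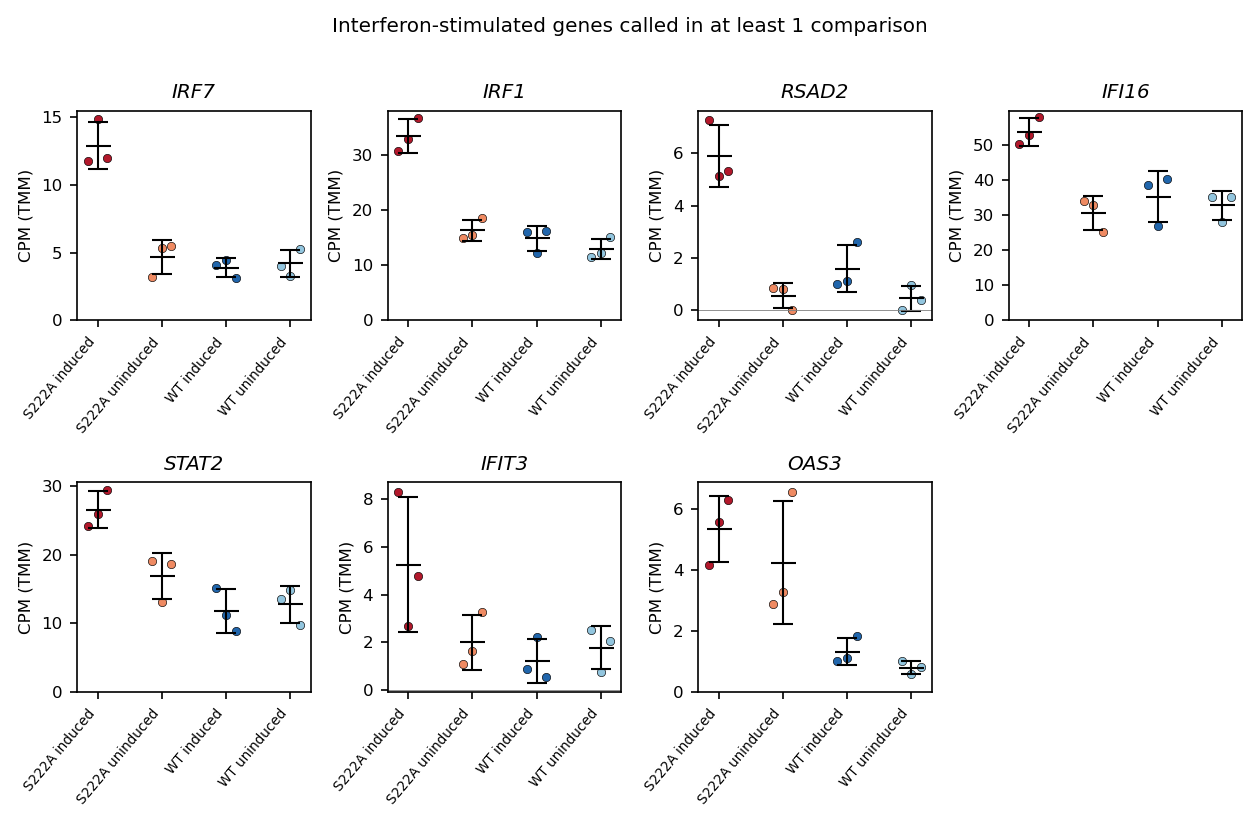
Level (CPM with TMM factors, y axis) of the 7 interferon-stimulated genes called in at least 1 comparison, with a point per library and bars for mean ± SD (n = 3 per group). IRF7, IRF1, IFI16 and RSAD2 in all 3 S222A induced libraries are above the other 9 libraries, while OAS3 is high in both S222A groups.

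These 4 calls rested on few libraries. IRF1 lost its call without S222A uninduced replicate 1 (adjusted p = 0.0553) and IRF7 without that library or S222A induced replicate 2 (up to 0.0922), while IFI16 lost its call without any 1 of the 6 S222A libraries (up to 0.12) and RSAD2 without any but S222A uninduced replicate 3 (up to 0.0925). Without the deepest library of each group none was called (adjusted p from 0.051 for RSAD2 to 0.0858 for IRF7), although the log2 differences of CPM were of like size within the deepest libraries and within the others: 1.27 and 0.89 for IRF1, 1.75 and 1.23 for IRF7, and 0.77 and 0.83 for IFI16. For RSAD2 they were 2.16 and 3.11. The part of depth was not tested beyond these values. Without S222A uninduced replicate 3, the library apart on component 3, IRF1, IRF7 and RSAD2 kept their calls. In GENCODE 29, exons of C5orf56 overlap those of IRF1, and exons of CMPK2 those of RSAD2, on the opposite strand. The strand setting of the counting is not given in the sources used here, so reads of such pairs cannot be told apart.

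The other genes tested were not called on S222A induction, and their values show where the groups stood. Among the IFIT genes, which bind viral RNA, IFIT3 was at 8.31, 2.68 and 4.78 CPM in S222A induced libraries, against 1.08, 1.64 and 3.29 CPM in S222A uninduced libraries, and these groups overlapped (log2 1.68 ± 0.63 SE, edgeR adjusted p = 0.161). IFITM3, a membrane protein that blocks virus entry, was at 3.12, 4.46 and 6.70 CPM in S222A induced libraries and at 2.52, 0.821 and 0 CPM in S222A uninduced libraries. IFITM3 also passed the filter only through the induced S222A libraries (log2 1.58 ± 0.56 SE, adjusted p = 0.134). Its neighbour in the family IFITM2 was abundant in all groups, between 102 and 218 CPM, with a log2 difference of -0.07 ± 0.30 SE. IFITM genes are close copies, so their reads may be shared. ISG20, an exonuclease that degrades RNA, was at 5.89, 6.02 and 6.22 CPM in S222A induced libraries, against 3.00, 2.87 and 5.48 CPM in S222A uninduced libraries.

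The RNA sensor gene DDX58, which encodes RIG-I, stood at 25.6, 29.7 and 17.5 CPM in S222A induced libraries, against 13.7, 14 and 21.9 CPM in S222A uninduced libraries. The sensor IFIH1, which encodes MDA5, stood at 15.2, 13.4 and 9.72 CPM, against 8.65, 12.3 and 7.67 CPM in S222A uninduced libraries. EIF2AK2, the kinase PKR that halts translation, stood at 45.0, 50.6 and 28.3 CPM in S222A induced libraries, against 26.3, 33.2 and 32.9 CPM in S222A uninduced libraries. All 3 overlapped between the groups, and in each the deepest induced library, replicate 3, was the lowest of its group. Among the OAS genes, which make the activator of RNase L, OAS2 stood at 23.9, 25.2 and 21.4 CPM in S222A induced libraries, against 15.4, 24.2 and 15.3 CPM in S222A uninduced libraries. OAS3 overlapped fully, at 4.16, 5.57 and 6.30 CPM in S222A induced libraries, against 2.88, 3.28 and 6.57 CPM in S222A uninduced libraries.

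BST2, the tetherin that holds budding viruses on the cell, stood at 63.4, 54.6 and 75.6 CPM in S222A induced libraries, against 48.5, 39.8 and 54.8 CPM in S222A uninduced libraries. The nuclear body gene SP100 stood at 52.3, 62.7 and 57.1 CPM in S222A induced libraries, against 42.8, 46.0 and 42.7 CPM in S222A uninduced libraries. SP100 groups did not overlap and BST2 groups did, with log2 differences of 0.39 ± 0.22 SE and 0.45 ± 0.19 SE. PARP9, an ADP-ribosyltransferase family member that works with the ubiquitin ligase DTX3L, stood at 17.7, 24.8 and 20.3 CPM in S222A induced libraries, against 16, 11.1 and 12 CPM in S222A uninduced libraries. PARP9 groups did not overlap (log2 0.64 ± 0.25 SE, edgeR adjusted p = 0.169). DTX3L, whose exons overlap those of PARP9 on the opposite strand, overlapped at 47.7 to 76.0 CPM induced and 42.7 to 62.5 CPM uninduced. PARP14, a related enzyme, stood at 83.5, 82.9 and 68.6 CPM in S222A induced libraries, against 53.1, 64.4 and 76.7 CPM in S222A uninduced libraries. IFI35 stood at 17.7, 12.3 and 13.6 CPM in S222A induced libraries, against 7.57, 8.62 and 6.57 CPM in S222A uninduced libraries. IFI35 did not overlap between these groups, but WT uninduced libraries held 12.1, 5.79 and 12.3 CPM of it. IFI6, a mitochondrial protein gene, stood at 20.1, 8.70 and 15.8 CPM in S222A induced libraries, against 9.97, 8.21 and 8.76 CPM in S222A uninduced libraries.

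No gene of the ISG15 system was called on S222A induction. ISG15, the ubiquitin-like modifier, stood at 7.62, 6.91 and 8.05 CPM in S222A induced libraries, against 5.41, 4.10 and 4.38 CPM in S222A uninduced libraries (log2 0.66 ± 0.28 SE, edgeR adjusted p = 0.229). Its ligase HERC5 stood at 32.2, 31.2 and 34.1 CPM in S222A induced libraries, against 45.2, 46.4 and 39.4 CPM in S222A uninduced libraries (log2 -0.43 ± 0.15 SE, adjusted p = 0.134). USP18, which removes ISG15 and restrains the receptor, stood at 1.73, 2.23 and 1.2 CPM in S222A induced libraries, against 2.76, 3.28 and 3.29 CPM in S222A uninduced libraries (log2 -0.87 ± 0.50 SE, adjusted p = 0.388). In none of the 3 did the groups overlap, with ISG15 higher and HERC5 and USP18 lower in the induced libraries. The remaining tested genes, MX2, IFIT5, XAF1 and TRIM22, overlapped between the groups, with log2 differences between -0.08 for TRIM22 and 0.33 for IFIT5.

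Counting over the 28 tested genes, the S222A groups did not overlap for 11 higher and 2 lower genes, while 14.4% of all genes tested were higher and 13% lower without overlap. The filter can let a gene through by its high group, as for RSAD2 and IFITM3 among the 11. ISG20, also among them, was over the filter level in 3 S222A induced libraries, 1 S222A uninduced and 1 WT induced library. The signs of the fold changes were also counted over the 22 genes with a mean of at least 3.05 CPM over all libraries, a mean that the high group raises too, as for ISG20. Of these, 19 had a positive and 3 a negative log2 fold change on S222A induction, with a median of 0.44, against 50% positive and a median of 0.00 over the 10745 genes at that level. The corresponding WT induction counts were 14 positive and 8 negative with a median of 0.07, against 51.1% positive and a median of 0.01. Medians are descriptions with no test.

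**Figure D3:**
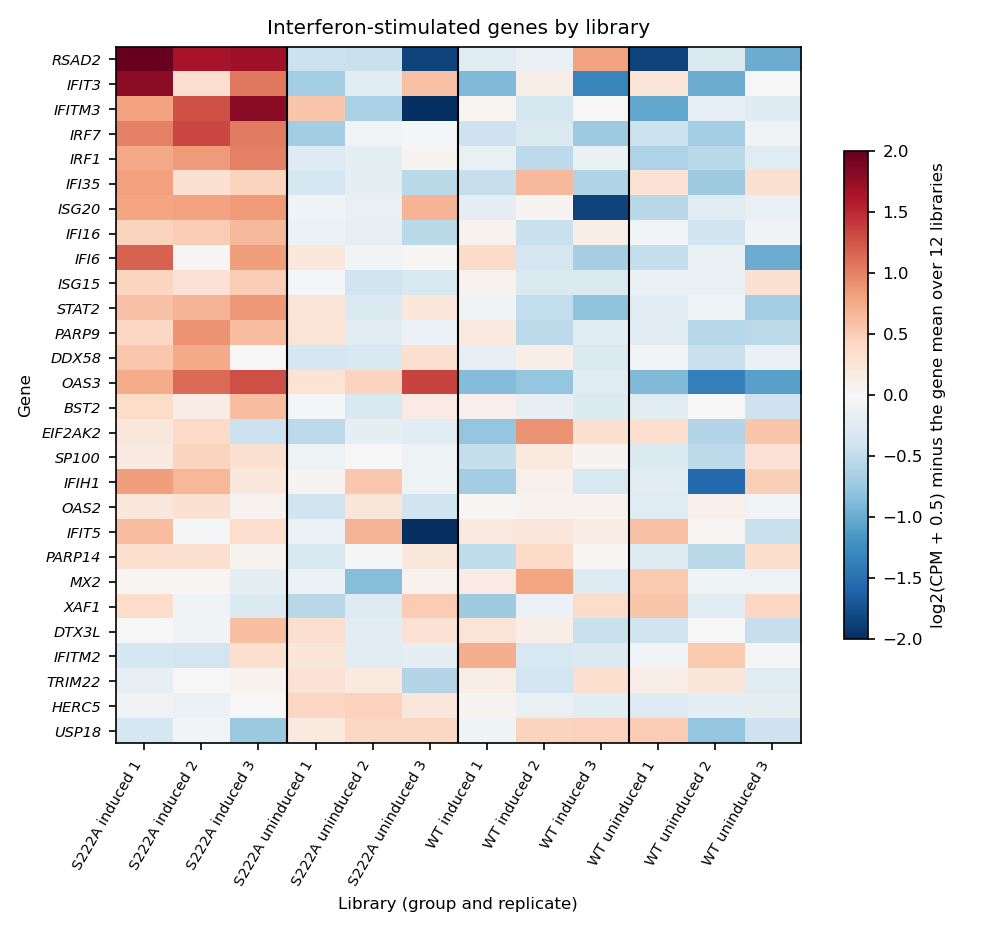
Level of each of the 28 tested genes (rows) in each library (columns, 4 groups of 3), as log2(CPM + 0.5) minus the gene's mean over the 12 libraries, with colours limited at 2 in either direction. RSAD2, IRF7 and IRF1 are above their mean in all 3 S222A induced libraries and HERC5 is above its mean in the S222A uninduced ones.

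Doxycycline treatment of the WT line called none of the 28 genes (smallest edgeR adjusted p = 1.00), and 0 of them had an unadjusted p under 0.05, against 1.21% of all genes higher and 0.488% lower. DESeq2 also called 0. Of all genes 0.00872% were called in that comparison. The WT groups did not overlap for RSAD2 and OAS3, both higher in induced libraries, while 2.81% of all genes were higher and 2.98% lower without overlap. OAS3 stood at 1.02, 1.12 and 1.84 CPM in WT induced libraries, against 1.01, 0.579 and 0.817 CPM in WT uninduced libraries, from 1 to 7 counts each. The intervals allow changes in the WT line of 0.55 to 1.55-fold for IRF7 and of 0.87 to 1.61-fold for IRF1. For IRF7 the edgeR unadjusted p of 0.87 was larger than its interval alone gives, so that interval may be too narrow.

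The difference between the doxycycline effects, S222A minus WT, was called for none of the 28 genes in edgeR (smallest adjusted p = 0.391) or DESeq2, with 4 higher and 1 lower at an unadjusted p under 0.05, against 3.63% and 3.04% of all genes. Over all genes 0.0784% were called, 0.0523% higher and 0.0261% lower. IFIT3, among the 4 higher at an unadjusted p, passed the filter only through S222A libraries. The largest difference relative to its error was that of IRF7, whose induction ratio was 3.21 times that of the WT line (95% interval 1.60 to 6.45; log2 1.68 ± 0.47 SE, adjusted p = 0.391). For IRF1 the ratio of ratios was 1.77 (95% interval 1.16 to 2.70; adjusted p = 0.59). The calls in the S222A line and the absence of calls in the WT line are thus not shown to differ for any of these genes.

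After doxycycline, 5 of the 28 genes were higher in the S222A than in the WT line and none lower, where 6.34% of all genes were called, 3.73% higher and 2.61% lower. At an unadjusted p under 0.05, 14 were higher and 0 lower, against 11.2% and 9.96% of all genes. Besides IRF1 and IRF7 these were STAT2, OAS3 and IFIT3. OAS3 and IFIT3 were over the filter level of 3.05 CPM in 5 and 3 S222A libraries and in no WT library, so both were tested only through the line in which they were high. Among the 14 at an unadjusted p under 0.05, RSAD2 and IFITM3 also passed the filter only through S222A libraries. ISG20, among them too, was over the level in 1 WT library. The count of 14 is thus partly fixed by the filter. This comparison shares the S222A induced libraries with the induction above and is not separate evidence of their high values. IRF1 at 30.8, 33.0 and 36.8 CPM in S222A induced libraries compares with 16.1, 12.3 and 16.3 CPM in WT induced libraries, a fold of 2.19 (95% interval 1.64 to 2.93; adjusted p = 0.00506). IRF7 compares with 4.09, 4.48 and 3.16 CPM in WT induced libraries, a fold of 3.37 (95% interval 2.11 to 5.37; edgeR adjusted p = 0.00622). Both calls held without each of the 6 libraries in turn and without the deepest library of each group. Neither gene was called when the replicate number was added as a block. The summed level of 8 T and NK cell markers also differed between the lines, at 77.9 to 105 CPM in S222A induced and 54.9 to 65.9 CPM in WT induced libraries, and 80.9 to 93.1 and 58.3 to 67 CPM in the uninduced ones. NCAM1 and NKG7 made up most of it, and its part in the results was not tested.

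STAT2 stood at 24.2, 25.9 and 29.5 CPM in S222A induced libraries, against 15.2, 11.2 and 8.95 CPM in WT induced libraries, without overlap (fold 2.21, 95% interval 1.51 to 3.23; edgeR adjusted p = 0.019). OAS3 stood at 4.16, 5.57 and 6.30 CPM in S222A induced libraries, against 1.02, 1.12 and 1.84 CPM in WT induced libraries (fold 4.0, 95% interval 2.02 to 7.91; adjusted p = 0.022). IFIT3 stood at 8.31, 2.68 and 4.78 CPM, against 0.877, 2.24 and 0.526 CPM in WT induced libraries, and its range within the S222A induced libraries was wide (fold 5.5, 95% interval 2.03 to 14.9; adjusted p = 0.0452). IFIT3 had 6, 2 and 2 counts in the WT induced libraries and OAS3 had 7, 1 and 7. STAT2 lost its call without WT induced replicate 2 or 3 or S222A induced replicate 2 or 3 (up to 0.106), and OAS3 without WT induced replicate 1 or 3 or S222A induced replicate 2 or 3 (up to 0.103). IFIT3 lost it without any WT induced replicate or S222A induced replicate 1 or 2 (up to 0.201), and could not be tested without S222A induced replicate 3. RSAD2, at an adjusted p of 0.074, was not called between the induced lines. Groups did not overlap for 14 higher and 0 lower genes of the 28, against 15.2% and 12.9% of all genes. OAS3, IFIT3, RSAD2 and IFITM3 are among the 14 and passed the filter only through S222A libraries. ISG20 is among the 14 too, and only 1 WT library was over the filter level for it.

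**Figure D4:**
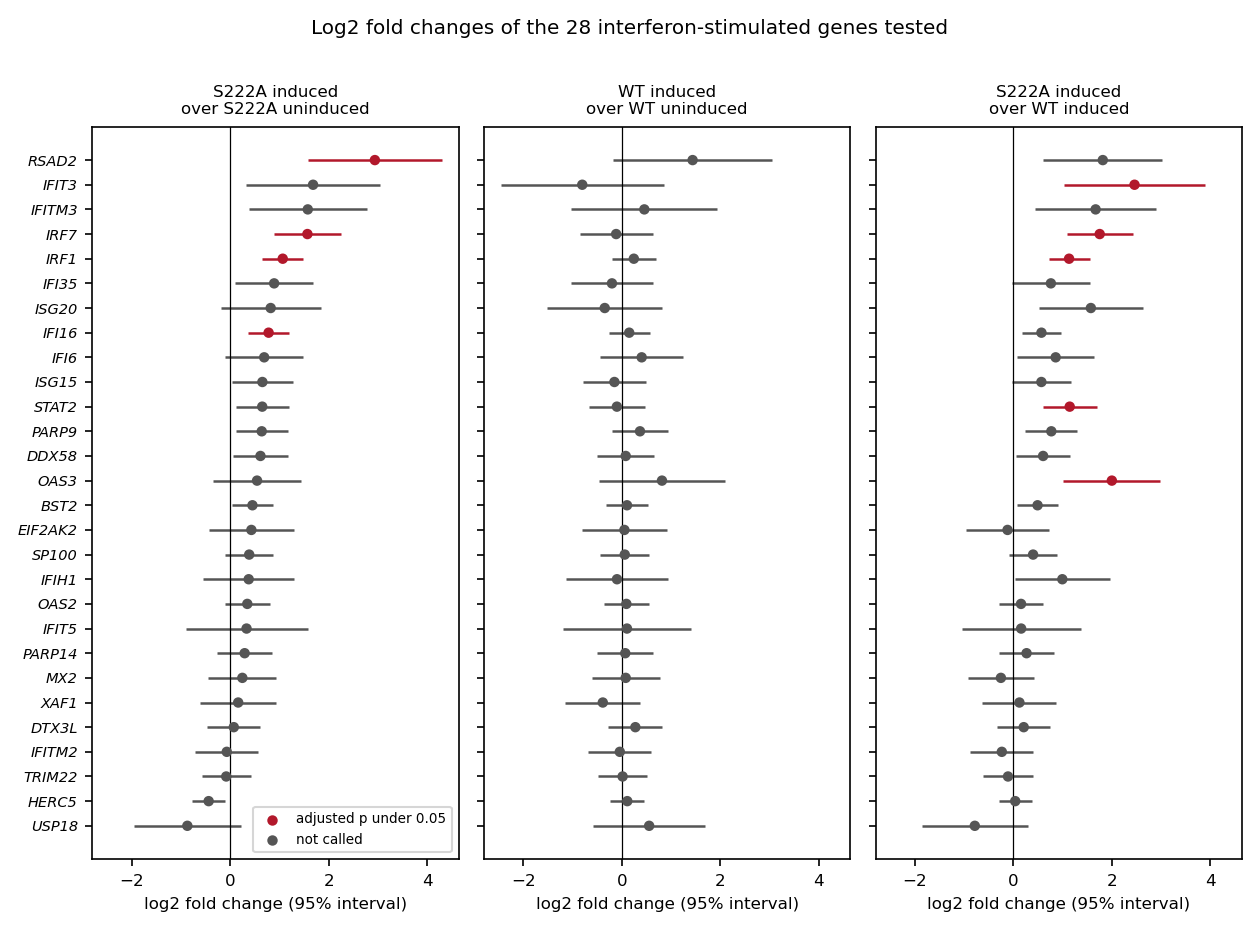
Log2 fold changes with 95% intervals (x axes) of the 28 tested genes (rows, ordered by the S222A comparison) for S222A induced over S222A uninduced, WT induced over WT uninduced, and S222A induced over WT induced cells. Red marks an edgeR adjusted p under 0.05: 4 genes in the left panel, none in the middle and 5 on the right.

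Before doxycycline none of the 28 genes was called between the lines by edgeR or DESeq2 (smallest edgeR adjusted p = 0.141; 2 higher and 0 lower at an unadjusted p under 0.05, against 4.17% and 3.30% of all genes), where 0.392% of all genes were called, 0.340% higher and 0.0523% lower. OAS3 stood at 2.88, 3.28 and 6.57 CPM in S222A uninduced libraries, against 1.01, 0.579 and 0.817 CPM in WT uninduced libraries, without overlap (fold 4.82, 95% interval 2.14 to 10.8; edgeR adjusted p = 0.141). HERC5 stood at 45.2, 46.4 and 39.4 CPM in S222A uninduced libraries, against 28.3, 29.7 and 29.8 CPM in WT uninduced libraries (log2 0.59 ± 0.16 SE, adjusted p = 0.229). In S222A induced libraries HERC5, at 31.2 to 34.1 CPM, overlapped the WT induced range of 28.9 to 35.2 CPM. ISG20 and IFI6 were the other genes higher without overlap, 4 in all and 0 lower, where 6.24% of all genes were higher and 6.10% lower without overlap. OAS3, counted among the 4, passed the filter only through S222A libraries. For ISG20 the lowest S222A uninduced value was 2.87 CPM and the highest WT uninduced value 2.86 CPM, from 7 counts each. For STAT2, IRF1 and IRF7 the groups overlapped.

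The 10 genes left untested include several of the best-known interferon targets. MX1, a dynamin-like antiviral GTPase, had 91 counts over all libraries and stood at 0.693 to 2.23 CPM in S222A induced, 1.10 to 1.92 in S222A uninduced, 0.877 to 7.85 in WT induced and 0.817 to 2.52 CPM in WT uninduced libraries. IFIT1 had 25 counts, OASL 23, IFI44L 20, IFI27 15 and IFITM1 5, and none of these reached 2.2 CPM in any library. Exons of IFITM2 overlap those of IFITM1 on the same strand, so the low count of IFITM1 is uncertain. IFI44 had no count in any library. IFIT2 stood at 3.46, 6.91 and 2.55 CPM in S222A induced libraries, against 0.721, 0.821 and 1.10 CPM in S222A uninduced libraries, 0.731, 0 and 0.263 CPM in WT induced and 0.505, 0.579 and 0 CPM in WT uninduced libraries. All 3 S222A induced libraries were above the other 9, with 10, 31 and 32 counts. Exons of LIPA, with 2325 counts over all libraries against 92 for IFIT2, overlap those of IFIT2 on the opposite strand. Reads of this pair cannot be told apart either, so the IFIT2 counts are uncertain. When the filter was lowered to a minimum count of 1, IFIT2 was called between the induced lines (log2 3.04, edgeR adjusted p = 0.0253) but not on S222A induction (log2 2.36, adjusted p = 0.093). OAS1 stood at 2.42, 4.68 and 4.70 CPM in S222A induced libraries and at 1.64 to 2.52 CPM in S222A uninduced libraries, without a call under that filter.

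Outside the 38 genes, 7 further lists covered the rest of the pathway. None of the 21 listed interferon ligand genes could be tested: 18 were in the table under these symbols, 14 of them with no count, and the others had 7 counts together over 12 libraries. In the list of receptors, JAK kinases and STATs, none of 10 tested genes was called on S222A induction (2.80% of all genes higher), and 3 were higher in S222A than in WT induced cells (3.73% of all genes). Those were IL10RB, a shared receptor chain (fold 1.67, edgeR adjusted p = 0.00956), the interferon receptor chain IFNAR2 (fold 1.97, adjusted p = 0.0329) and the kinase JAK2 (fold 1.57, adjusted p = 0.0431). IFNAR2 stood at 42.6, 39.0 and 26.9 CPM in S222A induced libraries, against 15.9, 17.9 and 20.8 CPM in WT induced libraries. IL10RB lost its call without WT induced replicate 3 (0.0526), JAK2 without any 1 of the 6 libraries (up to 0.155) and IFNAR2 without any but S222A induced replicate 3 (up to 0.13).

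On S222A induction 1 of 13 tested sensors, adaptors and kinases was higher and none lower (2.80% and 1.66% of all genes): TRIM25, the ubiquitin ligase that activates RIG-I. At an unadjusted p under 0.05, 1 of the 13 was higher and 3 were lower, against 9.85% and 9.26% of all genes. TRIM25 stood at 315, 317 and 348 CPM in S222A induced libraries, against 201, 194 and 165 CPM in S222A uninduced libraries (fold 1.74, log2 0.80 ± 0.14 SE, edgeR adjusted p = 0.00623). Its call held without each S222A library in turn. Of 4 other interferon regulatory factors tested, IRF2, which can compete with IRF1 at its sites, was higher at 59.2, 62.4 and 65.4 CPM in S222A induced libraries, against 39.5, 26.7 and 26.3 CPM in S222A uninduced libraries (fold 1.97, adjusted p = 0.0166). IRF2 lost its call without any 1 S222A library other than S222A uninduced replicate 1 (up to 0.0961). IRF8 was not called, and was low in S222A uninduced replicate 3, at 28.5 CPM.

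Of 35 further interferon-stimulated genes tested, 1 was higher and 0 lower on S222A induction, where 2.80% of all genes were higher and 1.66% lower. Their median log2 fold change was 0.29, against 0.01 over all genes. The called gene was HELZ2, a helicase-like coactivator, at 17.3, 10.7 and 13.9 CPM in S222A induced libraries, against 4.08, 4.10 and 2.19 CPM in S222A uninduced libraries (fold 3.67, edgeR adjusted p = 0.0137; lost without S222A uninduced replicate 1 or 2 or induced replicate 1 or 3, up to 0.0675). Of 23 tested genes of the interferon-gamma response and antigen presentation, 2 were higher and 1 lower on S222A induction, beside 2.80% and 1.66% of all genes. GBP2, a guanylate-binding protein, stood at 19.4, 20.3 and 21.6 CPM in S222A induced libraries, against 8.05, 4.92 and 8.76 CPM in S222A uninduced libraries (fold 2.86, adjusted p = 0.039). GBP2 lost this call without any 1 of the 6 libraries (up to 0.158), but between the induced lines it was 6.41-fold higher in S222A cells, and that call held without each library (adjusted p = 0.00235). HLA-E, a non-classical class I molecule, stood at 348, 332 and 320 CPM in S222A induced libraries, against 175, 196 and 207 CPM in S222A uninduced libraries (fold 1.73, adjusted p = 0.00939). The WT libraries held 231 to 293 CPM of HLA-E, above the S222A uninduced ones. NLRC5, an activator of class I genes, fell to 28.4, 22.5 and 26.6 CPM in S222A induced libraries, against 51.8, 47.6 and 61.3 CPM in S222A uninduced libraries (log2 -1.04 ± 0.20 SE, edgeR adjusted p = 0.00973; 0.0617 without S222A induced replicate 2). None of 12 tested negative regulators was called on S222A induction.

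**Figure D5:**
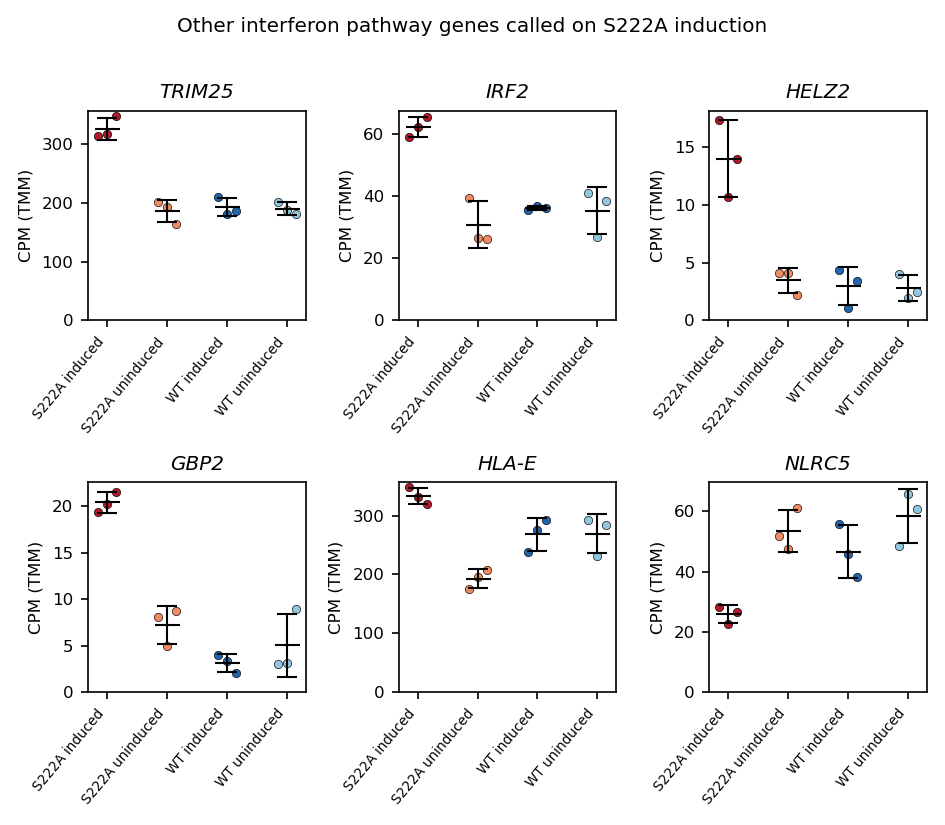
Level (CPM with TMM factors, y axis) of the 6 other pathway genes called on S222A induction, with a point per library and bars for mean ± SD (n = 3 per group). All but NLRC5 are highest in the 3 S222A induced libraries, and NLRC5 is lowest there.

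Between the induced lines, the other calls in these lists were in TRIM25 and IRF2, in HELZ2, PARP10 and PNPT1, and in HLA-DRB1 and NLRC5. HLA-DRB1, a class II antigen-presenting chain, stood at 27.7, 27.6 and 33.8 CPM in S222A induced libraries, against 8.33, 15.7 and 8.16 CPM in WT induced libraries (fold 3.08, edgeR adjusted p = 0.00299). It was the 1 listed gene called between the lines before doxycycline, at 22.3, 22.2 and 15.3 CPM in S222A uninduced libraries, against 7.57, 8.69 and 7.76 CPM in WT uninduced libraries (fold 2.54, adjusted p = 0.0491). That call before doxycycline was lost without any 1 of the 6 uninduced libraries (up to 0.252). PNPT1, a mitochondrial RNA exonuclease, was lower in S222A than in WT induced cells, at 37.4, 46.6 and 34.3 CPM against 49.1, 83.0 and 89.2 CPM (log2 -0.89 ± 0.25 SE, adjusted p = 0.049). PARP10 was higher, at 20.8, 14 and 10.2 CPM in S222A induced libraries against 5.85, 4.48 and 7.37 CPM in WT induced libraries (fold 2.37, adjusted p = 0.0479). PNPT1 kept its call without WT induced replicate 1 and PARP10 without S222A induced replicate 3, and each lost it without any other library of the 6 (up to 0.202 and 0.188).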

How the data were processed

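RNA sequencing counts of 12 libraries in 4 groups were used. Their gene-level read counts, whole numbers without normalization, were deposited by the authors in 1 table keyed by symbol. Per the submitters' processing notes the build was hg19 and the tools STAR 2.4, HTSeq 0.6.1 and DESeq2. The annotation release and whether counting used strand: not given in the sources used here. Columns were matched to samples by name, the sample descriptions; the header has a space in place of its last tab. Promoter coordinates are GRCh38.p14 and were not combined with hg19 ones. Genes passing filterByExpr at a minimum count of 10 (11474, with 99.47% of counts) were tested in edgeR 4.0.16 (R 4.3.3) with TMM factors, 1 mean per group over all 12 libraries (8 residual degrees of freedom) and robust quasi-likelihood F tests, adjusted by Benjamini-Hochberg over all genes. The 5 comparisons were induced against uninduced in each line, their difference, and the lines after and before doxycycline. Each SE was obtained as the size of the log2 fold change over the root of its F statistic. For some genes that were not called, the p-value was larger than this F statistic gives. Their SE and interval may be too small. DESeq2 1.42.0 was an alternative. The test was also run on simulated counts with no shift by depth and no outlying library. That run does not speak to these features of the libraries, and its outcome is not given here. Library totals of 875710 to 13134791 counts and a biological coefficient of variation of 24.8% limit precision. Named were all 38 genes, those called or among the next 15 by p given by library, and called genes of the lists; IFIT2, OAS1 and IRF8 were singled out after their values were seen. The genes and lists were chosen with earlier results of these data known. A gene of the pathway lists is not reported here.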

Additional observations from a re-analysis of the deposited data

How the results depend on the processing

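Counts of called genes below are for the listed 38 genes and then for all genes. On S222A induction (4 and 511) they were 10 (9 higher and 1, HERC5, lower) and 2052 (1006 higher and 1046 lower, against 321 and 190) with a term for the deepest library of each group, 0 and 553 without the deepest libraries, 0 and 72 with the replicate block, 4 and 811 with DESeq2, and 0 to 3 and 187 to 329 with single libraries left out. Between the induced lines (5 and 727) they were 14 and 2480 with the term, 3 and 887 without the deepest libraries, 0 and 93 with the replicate block, 4 and 482 with only the groups compared, and 2 to 4 and 249 to 582 with single libraries left out. Before doxycycline (0 and 45) they were 1 (HERC5) and 218 with the term, 0 and 83 with DESeq2, 0 and 9 with only the groups compared, 0 and 9 with the replicate block, and 0 and 17 to 30 with single libraries left out. For the difference of effects (0 and 9) the listed genes stayed at 0 under every alternative run, and all genes gave 147 with the term, 36 with DESeq2, 4 at a minimum count of 1, 0 with the replicate block and 0 to 4 with single libraries left out. On WT induction (0 and 1) the listed genes stayed at 0 and all genes gave 6 with the term, 4 with DESeq2, and 0 at a minimum count of 1, with upper quartile factors, with only the groups compared, without the deepest libraries, with the replicate block and with any single library left out. Same-numbered libraries correlated between -0.531 and 0.323 over genes, and other pairs between -0.622 and 0.757. In each comparison the highest value was between the deepest libraries, whose numbers differ. Since the deepest libraries carry different numbers, these values cannot decide whether the numbers pair the libraries. The part of depth in them was not tested. No called gene reversed. The cause of these shifts was not tested, beyond the fewer samples or genes in some fits. Libraries under 1e6 counts limit genes below about 3 CPM.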
